A study of Mus musculus with 33 samples.

Results

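Macrophages from tumours given radiotherapy were compared directly with macrophages from tumours given interleukin 12 (IL-12), 2 single treatments that the deposited tables set only against unirradiated tumours without IL-12. The comparison covers 13856 genes of 53735 in each table, those with a mean normalised level of at least 50 over the 9 macrophage libraries. At the edge of this limit, the last gene inside it was Spcs2-ps, with a level of 50.05 and a log2 difference of -0.18 between the treatments, and the first gene outside was RP24-529L21.6, with a level of 49.98 and a log2 difference of -0.27. The RNA came from immune cells sorted from pancreatic tumours of C57BL/6 mice, in 33 libraries and 12 groups. The tumours grew from 100000 KCKO cells, a mouse pancreatic ductal adenocarcinoma line, implanted in the pancreas.

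The SBRT group received stereotactic body radiotherapy, 4 fractions of 6 Gy on days 6 to 9, and is represented by 2 macrophage libraries. The IL-12 group was not irradiated and received microspheres holding 0.5 µg of IL-12 in 2 mg of beads, injected into the tumour on day 10, and is represented by 3 libraries. The combination received both treatments and the unirradiated group neither, with 2 libraries each. The labels do not say which groups were given empty microspheres, so an effect of the beads and an effect of IL-12 cannot be told apart. Macrophages (TAM) were sorted as CD45+CD11b+Ly6G-F4/80+ cells with moderate Ly6C. Inflammatory monocytes (IM, CD45+CD11b+Ly6C+Ly6G-), with 3 libraries in each of the same 4 groups, serve as a comparison. The labels do not say that each library came from a separate mouse, so a p-value reflects only how much these libraries vary, which may be technical.

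Ionising radiation breaks DNA and stabilises the transcription factor p53, which switches on genes that halt the cell cycle, feed back on p53 itself or promote cell death. IL-12 acts mainly on T cells and natural killer cells, which answer with interferon gamma. Macrophages respond to interferon gamma by making GTPases that attack intracellular microbes, antigen-presenting molecules and T cell-attracting chemokines.

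The deposited tables give each gene a mean level, a log2 fold change and a Wald statistic against unirradiated macrophages, and no value for a single library, so the depth of each library is unknown and no count of libraries per direction can be given. Below, an effect is the Wald statistic times a standard error built from 1 spread per gene shared by the tables, on a log2 scale. The difference is the SBRT effect minus the IL-12 effect, in which the shared unirradiated libraries cancel. It carries its standard error after ±, and a gene was called at an adjusted p below 0.05 in a 2-sided normal test with Benjamini-Hochberg adjustment. To show the size of the signal, group levels implied by the mean level and the 3 effects are given in normalised read counts. The fold changes were shrunken by the authors, so sizes understate the change of low or variable genes. The standard errors and intervals were built from the same fold changes and are on that shrunken scale too. Within a population the scale cancels in the ratio of a difference to its standard error. Between populations it may differ, and it then enters the p-values. All positions are of build GRCm38. The kit did not mark strand, so reads of overlapping genes on opposite strands cannot be told apart.

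The sorted cells carried the macrophage markers they were labelled for. All 11 macrophage markers had mean levels between 6528 and 593744, led by the lysozyme gene Lyz2, and 0 of them was called between SBRT and IL-12, with 2 unadjusted p below 0.05. Adgre1, which encodes the F4/80 antigen used in the sort, had a difference of -0.011 ± 0.17 (0.005 with 1 standard error for both tables), and the growth factor receptor gene Csf1r had one of -0.20 ± 0.16. Of the markers of other cells, those of monocytes reached 15103 and those of neutrophils 7772, above the lowest macrophage marker, while the 9 T cell markers ranged from 52.9 to 338.6, and 4 of 6 natural killer cell markers lay below 50. Summed over its markers, the implied level of T cell genes was 1525 in SBRT macrophages, against 1597 in IL-12 macrophages, and that of fibroblast genes was 1869 in SBRT macrophages, against 2672 in IL-12 macrophages.

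SBRT and IL-12 left macrophages different in 163 genes, 1.18% of those tested. Of these, 108 were higher after SBRT (0.78%) and 55 lower (0.397%), and 52 of the higher and 13 of the lower genes differed by at least 1 on the log2 scale. In most of them the SBRT effect was the larger in size, in 91 of the 108 higher genes and in 45 of the 55 lower ones. The 108 higher genes had a median effect of 0.83 after SBRT, against -0.12 after IL-12. The 55 lower genes had a median effect of -0.96 after SBRT, against -0.11 after IL-12. Over all 13856 genes the median difference was -0.0024, with 6859 differences positive and 6997 negative. Whether a gene was lower because fewer cells carried its RNA or because each cell carried less cannot be told apart in bulk libraries. With the covariance through the shared controls left out, a stricter test, 31 genes were higher and 4 lower. This variance counts the cancelled controls as noise, so fewer calls were certain in advance. It shows which calls stand furthest beyond the threshold and is no independent check. Genes named below whose difference in macrophages did not pass it are marked as lost under the stricter test. Calls of the difference between populations are not marked gene by gene.

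**Figure D1:**
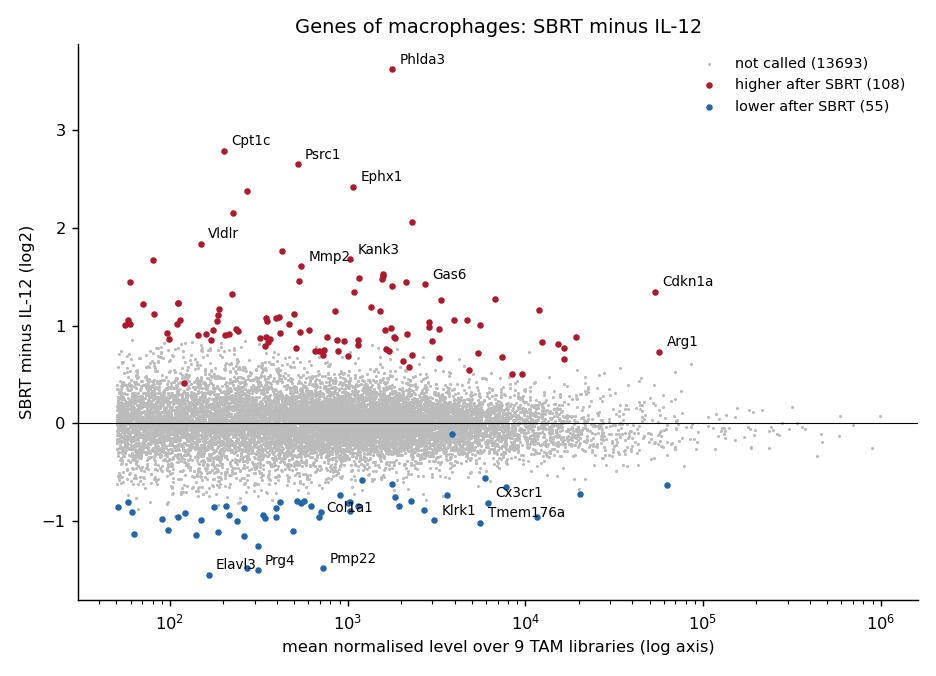
Difference between the treatments for each of 13856 genes in macrophages, on a log2 scale, against the mean normalised level on a log axis. The 108 genes called higher after SBRT (red) reach 3.63 at Phlda3, and the 55 called lower (blue) reach -1.55 at Elavl3.

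The p53 targets in the lists made up 15 of the 108 higher genes. Of 19 targets that act in arrest and feedback, 12 were higher after SBRT and 0 lower, with a median difference of 0.85. Of 8 cell death targets with a level of at least 50, 3 were higher and 0 lower, with a median of 0.48. A further 3 cell death targets lay below 50. Without the covariance term 7 of the 12 and all 3 of the cell death genes were still called.

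The largest difference of all belonged to Phlda3, which encodes a lipid-binding repressor of Akt signalling on chromosome 1 (135766119 to 135769136). Its implied level was 3839 in SBRT macrophages, against 311 in IL-12 macrophages, with 3383 in the combination and 341 in unirradiated macrophages. Both groups given radiation were thus high and both groups without it low. The difference of 3.63 ± 0.17 corresponds to 12.3-fold (adjusted p = 9.6e-95). Cdkn1a, the gene of the cyclin-dependent kinase inhibitor p21 (chromosome 17, 29090976 to 29100727), was among the most abundant of the called genes. Its implied level was 83617 in SBRT macrophages, against 32873 in IL-12 macrophages, with 76676 in the combination and 31393 in unirradiated macrophages, again split by radiation. The difference was 1.35 ± 0.14, or 2.54-fold (adjusted p = 2.1e-17).

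The promoter of Cdkn1a is shown because it was the only promoter of a called gene in which a pair of p53 half-sites was found. That of Ccng1, chosen after the values were seen, held a single half-site. Among the other called targets with a half-site in the promoter, Ccng1 had the smallest adjusted p. Both run 5′ to 3′ from 250 bases before to 50 after the RefSeq start, in build GRCm38.p6. The capitals mark the pair with its spacer in Cdkn1a (chr17:29090729-29091028, plus strand, from -73 to -42 relative to the start) and the half-site in Ccng1 (chr11:40755237-40755536, minus strand, from -185 to -176). The Cdkn1a window is that of 1 of 2 RefSeq starts in the table. No half-site was found in the matched promoters of Phlda3, Psrc1, Ephx1, Dcxr and Bbc3, targets with a smaller adjusted p than Ccng1.
Cdkn1a: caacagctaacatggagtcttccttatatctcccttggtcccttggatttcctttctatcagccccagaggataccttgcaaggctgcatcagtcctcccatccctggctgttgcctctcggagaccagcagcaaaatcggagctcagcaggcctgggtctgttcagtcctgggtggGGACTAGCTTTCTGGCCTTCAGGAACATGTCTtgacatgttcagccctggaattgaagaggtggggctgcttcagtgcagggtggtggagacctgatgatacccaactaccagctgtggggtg
Ccng1: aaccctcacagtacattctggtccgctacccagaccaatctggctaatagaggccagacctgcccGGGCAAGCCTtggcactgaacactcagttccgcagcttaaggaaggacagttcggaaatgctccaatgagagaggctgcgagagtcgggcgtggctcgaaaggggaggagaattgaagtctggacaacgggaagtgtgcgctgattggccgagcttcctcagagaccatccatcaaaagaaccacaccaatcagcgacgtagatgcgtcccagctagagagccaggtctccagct
Searched on both strands, the p53 half-site stood in 15 of 64 matched promoters of genes higher after SBRT (23.4%), in 4 of 34 of those lower (11.8%) and in 2582 of 27025 promoters in the table (9.55%). The half-site also stood in 3 of 11 matched promoters of interferon-inducible GTPase genes (27.3%), so such a share was not particular to the higher genes. The pair stood in 1.56% of promoters of the higher genes and in 0.074% of all. These matches describe the letters in this window and show no binding.

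Other p53 targets followed the same split by radiation. Psrc1, which encodes a microtubule-binding protein, had an implied level of 1009 in SBRT macrophages, against 160.1 in IL-12 macrophages and 248.9 in unirradiated ones, a difference of 2.66 ± 0.23 (adjusted p = 2.5e-26). Ephx1, the microsomal epoxide hydrolase, stood at 2036 in SBRT macrophages, against 380.1 in IL-12 macrophages and 570.4 in unirradiated ones, a difference of 2.42 ± 0.22 (adjusted p = 1.3e-24). Trp53inp1, a p53-induced nuclear protein, differed by 1.52 ± 0.22 (adjusted p = 9.9e-09, lost with each table's own standard error) and Dcxr, a carbonyl reductase, by 1.51 ± 0.14 (adjusted p = 5.8e-22). Ccng1, which encodes cyclin G1, differed by 1.27 ± 0.17. In each of these the implied level was highest in the SBRT group or in the combination.

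Mdm2, the ubiquitin ligase that degrades p53, had an implied level of 16158 in SBRT macrophages, against 9072 in IL-12 macrophages, with 17075 in the combination and 9305 in unirradiated ones. The difference was 0.83 ± 0.19 (adjusted p = 0.005), a call lost under the stricter test (adjusted p = 1.0). So were the calls of Zmat3 (1.02), an RNA-binding protein, Gdf15 (1.16), a secreted stress cytokine, Sesn2 (0.85), a sestrin, and Polk (0.85), a translesion DNA polymerase. Gdf15 owed part of its difference to IL-12, with effects of 0.60 after SBRT and -0.56 after IL-12. The 7 targets of this list that were not called included Btg2, Plk2, Plk3 and Sesn1, whose differences lay between 0.16 and 0.29, and Rrm2b at -0.33.

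Among the cell death targets, Bbc3, which encodes the pro-apoptotic protein Puma, had an implied level of 1676 in SBRT macrophages, against 659.7 in IL-12 macrophages and 561.3 in unirradiated ones. It differed by 1.34 ± 0.17 (adjusted p = 1.7e-12). The exonuclease gene Aen differed by 1.19 ± 0.19 (adjusted p = 3.8e-07) and Bax, a pore-forming death effector, by 1.01 ± 0.16 (adjusted p = 4.3e-07). The death receptor gene Fas differed by 0.38 ± 0.16 and Pmaip1, which encodes Noxa, by 0.30 ± 0.20, and neither passed. Of 29 DNA damage repair genes 0 was called, and 5 had an unadjusted p below 0.05, all lower, against 4.87% of all genes with such a lower value.

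**Figure D2:**
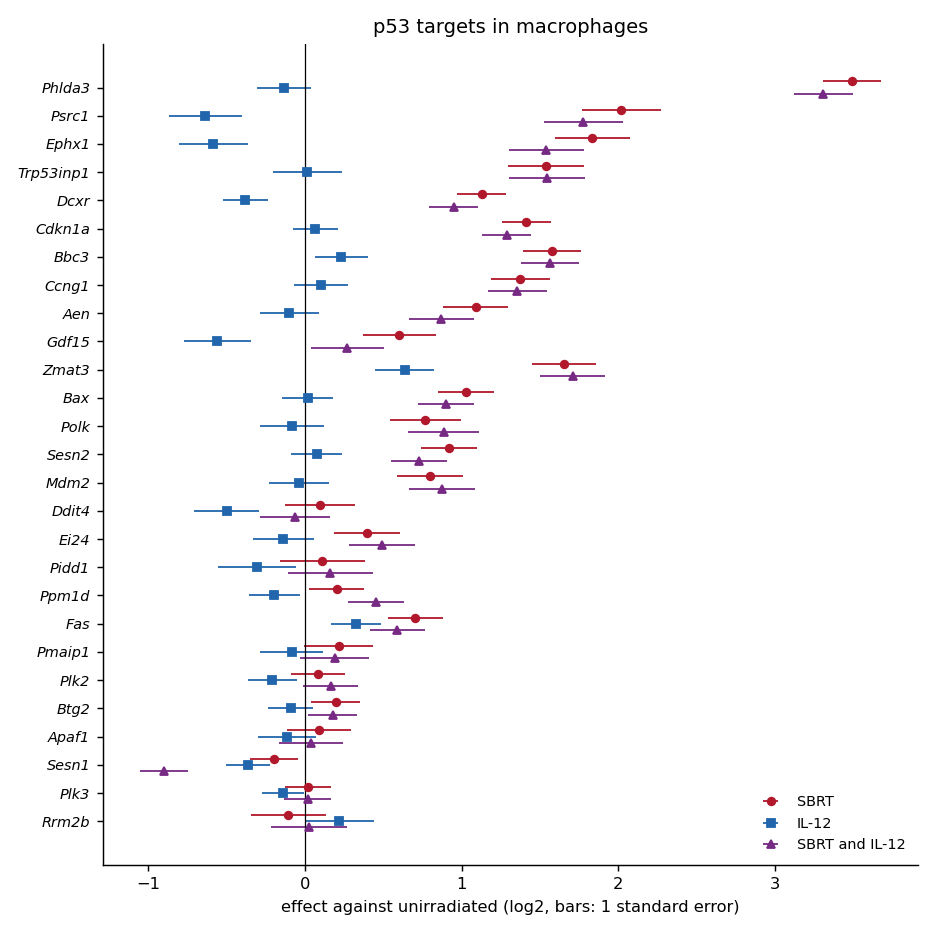
Effects against unirradiated macrophages (log2, points, with bars of 1 standard error) for the 27 p53 targets with a level of at least 50, after SBRT (red circles), IL-12 (blue squares) and both (purple triangles). Phlda3 stands at 3.49 after SBRT, -0.13 after IL-12 and 3.31 after both, and the 15 called targets lie further right after SBRT than after IL-12.

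Several of the other highest genes owed most of their difference to the SBRT effect. Cpt1c, which encodes the brain-type isoform of carnitine palmitoyltransferase, had an implied level of 378.2 in SBRT macrophages, against 54.6 in IL-12 macrophages, with 374 in the combination and 67 in unirradiated ones. Its difference was 2.79 ± 0.24, or 6.92-fold (adjusted p = 2.5e-26). RP24-286J21.7, a clone-named gene with no annotation in the tables used here, differed by 2.06 ± 0.20 (adjusted p = 3.0e-20), Pvt1, a long non-coding RNA gene beside Myc, by 1.76 ± 0.20 (adjusted p = 6.1e-15), and Kank3, a cytoskeletal ankyrin-repeat gene, by 1.68 ± 0.18 (adjusted p = 2.8e-16). The desaturase gene Scd2 stood at 5752 in SBRT macrophages, against 2769 in IL-12 macrophages and 2611 in unirradiated ones, a difference of 1.05 ± 0.20 (adjusted p = 9.8e-05), lost under the stricter test.

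For others the difference had parts of similar size from each treatment. Mmp2, which encodes the gelatinase that degrades basement membrane collagen (chromosome 8, 92827291 to 92853420), had an implied level of 812.2 in SBRT macrophages, against 266.2 in IL-12 macrophages, with 795.9 in the combination and 466.3 in unirradiated ones. Unirradiated macrophages thus lay between the treatments, and the combination lay close to SBRT alone. The difference was 1.61 ± 0.20 (adjusted p = 2.0e-12). In the authors' deposited table Mmp2 rose after SBRT (log2 fold change 0.80, adjusted p = 0.020) and fell after IL-12 (-0.87, adjusted p = 0.011). Arhgap32, a GTPase-activating protein gene with a mean level of 80.5, differed by 1.67 ± 0.26 (adjusted p = 1.0e-07), with effects of 0.85 after SBRT and -0.81 after IL-12. Vldlr, a lipoprotein receptor gene, differed by 1.84 ± 0.20 (adjusted p = 5.3e-16), with effects of 1.15 after SBRT and -0.69 after IL-12.

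A smaller number of genes were higher after SBRT mainly through a negative IL-12 effect. Of the 108 higher genes, 17 had the larger effect after IL-12. Gas6, which encodes the ligand that bridges dying cells to the receptors Axl and Mertk, had an implied level of 4012 in SBRT macrophages, against 1497 in IL-12 macrophages, with 2841 in the combination and 3210 in unirradiated ones. The IL-12 group was the lowest of the 4, and the difference was 1.42 ± 0.23, or 2.68-fold (adjusted p = 6.2e-07). Its receptor genes did not pass, with differences of -0.29 ± 0.18 for Axl and 0.35 ± 0.17 for Mertk. Gas6 was the single called member of 22 complement and phagocytic receptor genes, whose median difference was -0.095. Lhfpl2, a tetraspan membrane protein gene, showed the same order, with 2720 in SBRT macrophages, 1029 in IL-12 macrophages and 1986 in unirradiated ones (1.40 ± 0.21, adjusted p = 2.2e-08). So did Sulf2, which encodes an extracellular heparan sulfatase and was chosen after its values were seen (1.48 ± 0.21).

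Markers of alternative activation had a positive difference in 18 of 22 genes, against 6859 of all 13856. Of these 22 genes with a level of at least 50, 3 were higher, 0 lower and 19 not called, with a median difference of 0.18, and all 3 calls were lost under the stricter test. Arg1, which encodes the arginine-degrading enzyme arginase 1, had an implied level of 71454 in SBRT macrophages, against 43076 in IL-12 macrophages, with 62540 in the combination and 57098 in unirradiated ones. The difference was 0.73 ± 0.16, or 1.66-fold (adjusted p = 0.0019, and 0.78 under the stricter test). The lectin gene Mgl2 differed by 0.98 ± 0.24 (adjusted p = 0.013) and the eosinophil-attracting chemokine gene Ccl24 by 0.73 ± 0.16 (adjusted p = 0.0024). Mgl2 was lowest in the combination, at 821.6, below 1371 after IL-12 alone. The mannose receptor gene Mrc1 (0.20 ± 0.17) and the scavenger receptor gene Cd163 (0.10 ± 0.23) were not called. The shift of this list was not particular to macrophages, as its median difference in IM was larger, at 0.33. Ccl24 (1.27 ± 0.21), Mrc1 (0.82 ± 0.21) and Cd163 (1.69 ± 0.23) were called higher there.

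The chemokine genes were mixed, with 2 higher and 2 lower among 25 genes and receptors and a median of 0.045. Ccl9, which encodes a myeloid-attracting chemokine, stood at 18742 in SBRT macrophages, against 10708 in IL-12 macrophages, with 14406 in the combination and 19612 in unirradiated ones, so that the IL-12 group was the lowest and the combination next (0.81 ± 0.17, adjusted p = 0.0016). Cxcl13, which attracts B cells, stood at 41.9 in SBRT macrophages, against 89.4 in IL-12 macrophages and 185.4 in unirradiated ones (-1.09 ± 0.28, adjusted p = 0.022). Cx3cr1, the fractalkine receptor gene, stood at 4020 in SBRT macrophages, against 7071 in IL-12 macrophages and 8897 in unirradiated ones (-0.81 ± 0.22, adjusted p = 0.043). All 4 calls were lost under the stricter test, and those of Cxcl13 and Cx3cr1 also under 3 and 2 of the other settings. With each table's own standard error the difference of Cxcl13 was -0.447. Abca1, a cholesterol exporter gene, and Ido1, which encodes a tryptophan-degrading enzyme, were higher by 0.66 ± 0.15 (adjusted p = 0.0029) and 1.05 ± 0.25 (adjusted p = 0.006), and both calls were lost under the stricter test, that of Ido1 also with each table's own standard error. Abca1 and Scd2 were the 2 called of 27 lipid handling genes. Of the 27, 18 had a negative difference, against 6997 of all 13856 genes, and the median was -0.038. An unadjusted p below 0.05 was seen in 5 with a lower value, against 4.87% of all genes, and in 3 with a higher one, against 4.95%.

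Of the 55 genes lower after SBRT, 32 had a negative effect of both treatments. Pmp22, a tetraspan membrane protein gene first known from myelin, had an implied level of 250.2 in SBRT macrophages, against 701.1 in IL-12 macrophages, with 610 in the combination and 1340 in unirradiated ones. The order ran from SBRT alone through the combination and IL-12 to unirradiated, and the difference was -1.49 ± 0.22 (adjusted p = 5.0e-08). In the authors' deposited table Pmp22 fell after SBRT (-2.35, adjusted p = 4.0e-19) and after IL-12 (-0.93, adjusted p = 0.0075). Lrg1, which encodes a secreted glycoprotein that acts on blood vessels, stood at 109.6 in SBRT macrophages, against 305.9 in IL-12 macrophages and 507.1 in unirradiated ones (-1.48 ± 0.24, adjusted p = 5.6e-07). Prg4, which encodes the lubricating glycoprotein lubricin, stood at 143.6 in SBRT macrophages, against 407.6 in IL-12 macrophages and 499.7 in unirradiated ones (-1.50 ± 0.23, adjusted p = 5.4e-08). In all 3 the SBRT group was the lowest of the 4.

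The neighbouring genes Tmem176a and Tmem176b on chromosome 6, which encode membrane proteins of antigen-presenting cells, moved alike. Tmem176a stood at 3286 in SBRT macrophages, against 6656 in IL-12 macrophages, with 3918 in the combination and 7941 in unirradiated ones (-1.02 ± 0.18, adjusted p = 2.7e-05). Tmem176b differed by -0.97 ± 0.19 (adjusted p = 0.00015). The integrin gene Itga6, part of a laminin receptor, differed by -0.85 ± 0.20 (adjusted p = 0.0052). Ackr3, a scavenging receptor gene for the chemokine CXCL12 with a mean level of 140, differed by -1.14 ± 0.27 (adjusted p = 0.0092), and Ptgis, the prostacyclin synthase gene with a mean level of 62.6, by -1.14 ± 0.29 (adjusted p = 0.020). The calls of these 5 genes, Tmem176a and Tmem176b among them, were lost under the stricter test, and those of Ackr3 and Ptgis under 1 and 3 other settings too. With each table's own standard error their differences were -0.673 and -0.727.

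Col1a1, the collagen gene that defines fibroblasts, stood at 386.1 in SBRT macrophages, against 753.7 in IL-12 macrophages and 1069 in unirradiated ones (-0.96 ± 0.22, adjusted p = 0.0044). The muscle actin gene Acta2, also a fibroblast marker, differed by -0.94 ± 0.20, and both calls were lost under the stricter test. These 2 were the called ones among 6 fibroblast markers with a level of at least 50, and all 6 differences were negative, with a median of -0.27. The fibroblast receptor genes Pdgfra and Pdgfrb had mean levels of 6.46 and 16.3. The part of fibroblast RNA in these results was not tested. The 2 B and plasma cell markers above 50, Cd79b and Ighm, had differences of -0.55 and -0.78 and were not called, and the summed implied level of the 7 markers was 2394 in SBRT macrophages, against 3968 in IL-12 macrophages.

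Of the 55 lower genes, 10 had the larger effect after IL-12, Klrk1 and Ly6a among them. Klrk1, which encodes the activating receptor NKG2D and is a natural killer cell marker, had effects of 0.18 after SBRT, 1.17 after IL-12 and 0.93 after both, and differed by -0.99 ± 0.18 (adjusted p = 3.0e-05, and 0.16 under the stricter test). Its mean level of 3060 stood far above those of the other natural killer cell markers, with Ncr1 at 5.31 and Klrb1c at 5.71. Ly6a, an interferon-inducible surface antigen gene on chromosome 15, had an implied level of 50042 in SBRT macrophages, against 77764 in IL-12 macrophages, with 74593 in the combination and 40166 in unirradiated ones. Both groups given IL-12 were the high ones, and the difference was -0.64 ± 0.14 (adjusted p = 0.0019), lost under the stricter test. In the authors' deposited table Ly6a rose after IL-12 (0.97, adjusted p = 1.4e-07) and did not pass after SBRT (0.32, adjusted p = 0.43). The next 4 genes had a negative SBRT effect beside a positive IL-12 effect. The activating receptor gene Cd226 differed by -1.16 ± 0.23 (adjusted p = 0.00019) and the guanine nucleotide exchange factor gene Arhgef10 by -1.10 ± 0.21 (adjusted p = 0.00016), with SBRT effects of -0.72 and -0.77 and IL-12 effects of 0.44 and 0.33. The clone-named genes RP23-458B6.6 (-1.26 ± 0.23) and RP24-468O24.4 (-1.12 ± 0.23), with SBRT effects of -0.53 and -1.06 and IL-12 effects of 0.73 and 0.056, have no annotation in the tables used here. These 4 calls were also lost under the stricter test.

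Elavl3, a neuronal RNA-binding protein gene with a mean level of 164.9, gave the lowest difference, -1.55 ± 0.14 (adjusted p = 4.9e-23), but its size is uncertain. The authors' deposited table gives a log2 fold change of 2.01 after IL-12, where the effect rebuilt from the statistic was 0.86, and the difference was -2.62 with each table's own standard error. Of the 163 called genes, 41 had spreads that differed by over 1.5 times between the tables. The smallest difference among the called genes, -0.11 for Trim30c, belongs to such a case, and its call was lost under the stricter test.

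Cell cycle genes had negative differences in nearly every member, though few passed. Of 34 mitosis genes 33 had a negative difference, against 6997 of all 13856 genes. Their median was -0.50, and 2 were called lower. An unadjusted p below 0.05 with a lower value was seen in 19 of the 34, against 4.87% of all genes (4.95% with a higher one). Of 31 genes of DNA replication and S phase, 30 were negative, with a median of -0.31, and 1 was called. The median effects of the mitosis genes were -0.81 after SBRT, -0.33 after IL-12 and -0.72 after both. In the authors' deposited table, where 2.51% of all genes changed after SBRT (1.36% lower) and 1.2% after IL-12 (0.332% lower), SBRT lowered 17 of the 34 and IL-12 lowered 0. Both comparisons share their controls.

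Bub1, which encodes a kinase of the spindle checkpoint (chromosome 2, 127801122 to 127831865), had an implied level of 141.2 in SBRT macrophages, against 270.1 in IL-12 macrophages, with 124.5 in the combination and 298.4 in unirradiated ones. The groups given radiation were the low ones, and the difference was -0.94 ± 0.23 (adjusted p = 0.015). Its relative Bub1b differed by -0.84 ± 0.21 (adjusted p = 0.016, and 0.050 with a null over genes with a level of at least 50). Bub1b was not split by radiation in this way. It stood at 388.1 in SBRT macrophages, against 696.4 in IL-12 macrophages, with 606.2 in the combination and 756.1 in unirradiated ones. Mcm6, a subunit of the replicative helicase, stood at 1775 in SBRT macrophages, against 3290 in IL-12 macrophages, with 1761 in the combination and 3602 in unirradiated ones (-0.89 ± 0.20, adjusted p = 0.0032). All 3 calls were lost under the stricter test. Mki67, the gene of the proliferation antigen Ki-67, was the single mitosis gene above 0, at 0.094 ± 0.23, with implied levels of 3011 in SBRT macrophages and 2820 in IL-12 macrophages.

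The promoter of Bub1 is shown as that of the called mitosis gene with the smallest adjusted p that held a searched element. The capitals mark its matches to the box CCAAT, the first on the opposite strand as ATTGG (chr2:127831810-127832109, minus strand, from -68 to -64 and from -42 to -38 relative to the RefSeq start).
Bub1: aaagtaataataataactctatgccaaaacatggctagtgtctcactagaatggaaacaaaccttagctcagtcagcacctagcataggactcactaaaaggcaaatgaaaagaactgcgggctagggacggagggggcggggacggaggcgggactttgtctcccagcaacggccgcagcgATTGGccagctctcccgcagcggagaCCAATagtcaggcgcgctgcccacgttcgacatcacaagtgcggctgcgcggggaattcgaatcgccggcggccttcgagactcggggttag
Searched on both strands, CCAAT stood in 69.1% of 55 matched promoters of the mitosis and S phase genes, against 41.1% of all promoters. The cell cycle homology element TTTGAA stood in 45.5% of them, against 20.2% of all. Both elements are known from cell cycle gene promoters, but such shares were not particular to these lists. CCAAT stood in 69.2% of 13 matched promoters of called p53 targets. TTTGAA stood in 45.5% of 11 matched promoters of interferon-inducible GTPase genes. In 34 matched promoters of genes lower after SBRT, CCAAT stood in 55.9% and TTTGAA in 20.6%.

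The interferon-inducible GTPase genes had negative differences in 17 of 18 cases, against 6997 of all 13856 genes, and 0 of them was called. All 7 immunity-related GTPases, which attack pathogen vacuoles, had negative differences between -0.54 and -0.42, with a median of -0.46 and an unadjusted p below 0.05 in all 7, against 9.82% of all genes. Igtp had effects of 0.23 after SBRT, 0.78 after IL-12 and 0.65 after both, and a difference of -0.54 ± 0.16 (adjusted p = 0.081). Ifi47 had a difference of -0.53 ± 0.15 (adjusted p = 0.065) and Iigp1 one of -0.49 ± 0.16 (adjusted p = 0.19). Summed over the 7 genes, the implied level was 129226 in SBRT macrophages, against 178811 in IL-12 macrophages, with 165148 in the combination and 110333 in unirradiated ones. Tgtp1 and Tgtp2 are near-identical copies between which the counting may have split reads.

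Of the 11 guanylate-binding protein genes, a second GTPase family that lyses pathogen membranes, 10 were negative, with a median of -0.23 and 1 unadjusted p below 0.05. Their median effects were 0.53 after SBRT, 0.76 after IL-12 and 0.80 after both. In the authors' deposited table, where 1.15% of all genes rose after SBRT and 0.867% after IL-12, SBRT raised 2 of the 11 and IL-12 raised 9, but the difference between the treatments did not pass for any of them. The widest gap was that of Gbp2b, at -0.35 ± 0.20, and Gbp11 was the single one above 0, at 0.092 ± 0.19. Among 11 of the 18 GTPase genes with a promoter in the RefSeq table, the interferon-stimulated element core (ISRE) stood in 90.9%, against 3.99% of all promoters, on either strand.

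**Figure D3:**
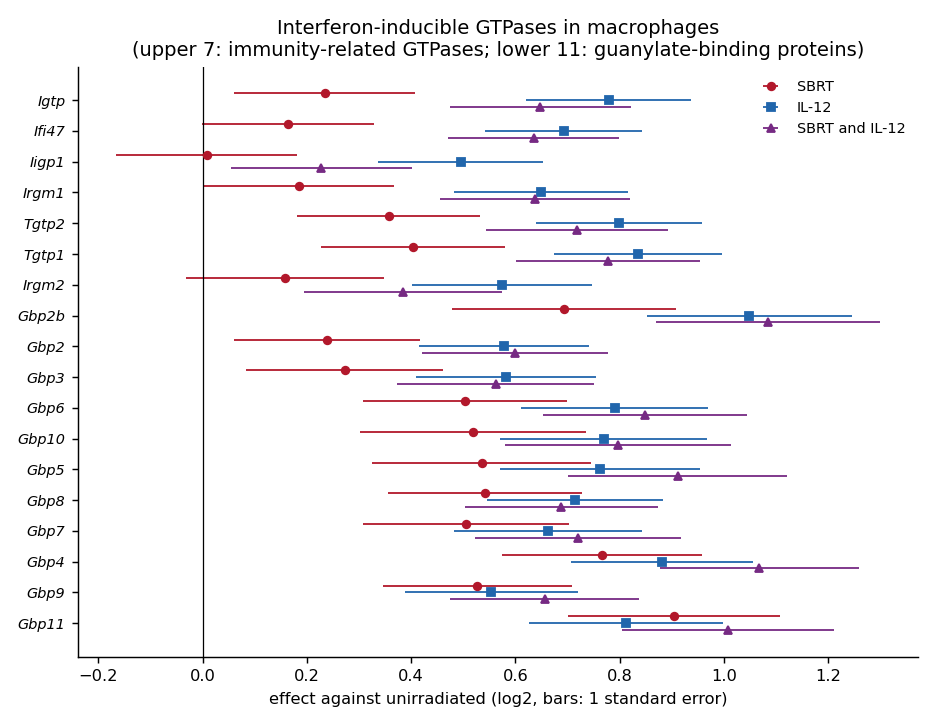
Effects against unirradiated macrophages (log2, points, with bars of 1 standard error) for 7 immunity-related GTPase genes and 11 guanylate-binding protein genes, after SBRT (red circles), IL-12 (blue squares) and both (purple triangles). For all but Gbp11 the SBRT point lies left of the IL-12 point, and the bars overlap for most guanylate-binding protein genes.

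The wider interferon response held few called genes. Of 24 interferon gamma signalling and response genes 1 was higher, Ido1, and 1 lower, Ly6a, with a median of -0.16. Negative differences made up 18 of the 24. An unadjusted p below 0.05 was seen in 5 with a lower value, against 4.87% of all genes, and in 1 with a higher one, against 4.95%. Of 29 type I interferon response genes 0 was called and 22 were negative (median -0.13, with 4 unadjusted p below 0.05). The transcription factor genes Irf1 (-0.16 ± 0.18) and Ciita (-0.16 ± 0.17) were not called. Neither was the IL-12 receptor subunit gene Il12rb1 (-0.38 ± 0.15, 95% interval -0.67 to -0.095), nor any other of 15 IL-12 and IL-18 signalling genes, of which 3 had an unadjusted p below 0.05. The T cell-attracting chemokine gene Cxcl9 had implied levels of 32870 in SBRT macrophages and 41052 in IL-12 macrophages (-0.32 ± 0.18). For these genes a p that missed the threshold does not show that the treatments acted alike.

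Antigen presentation and inflammatory genes showed 0 calls. Of 22 MHC class I presentation genes the median difference was -0.11, with 2 unadjusted p below 0.05, and of 15 MHC class II genes it was -0.16, with 0. Negative differences made up 14 of the 22 and 13 of the 15, against 6997 of all 13856 genes. H2-Ab1, a class II chain gene, had implied levels of 437335 in SBRT macrophages and 498258 in IL-12 macrophages (-0.19 ± 0.14, 95% interval -0.45 to 0.077). Of 22 inflammatory macrophage genes 18 were negative and the median was -0.12, with 3 unadjusted p below 0.05. Nos2, the inducible nitric oxide synthase gene, had implied levels of 14342 in SBRT macrophages, 14888 in IL-12 macrophages, 22489 in the combination and 9209 in unirradiated ones, so the single treatments were close (-0.054 ± 0.21, 95% interval -0.46 to 0.35). Cd274, which encodes the inhibitory ligand PD-L1, was at 26231 in SBRT macrophages, 28039 in IL-12 macrophages, 34358 in the combination and 19414 in unirradiated ones (-0.096 ± 0.16, 95% interval -0.42 to 0.23). Lysosome, glycolysis and hypoxia, oxidative stress and iron, and monocyte-to-macrophage differentiation genes also had 0 calls, with medians between -0.16 and -0.011 and 1, 1, 0 and 4 unadjusted p below 0.05. Negative differences made up 12 of 19, 24 of 27, 13 of 21 and 12 of 21 of them, in that order.

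**Figure D4:**
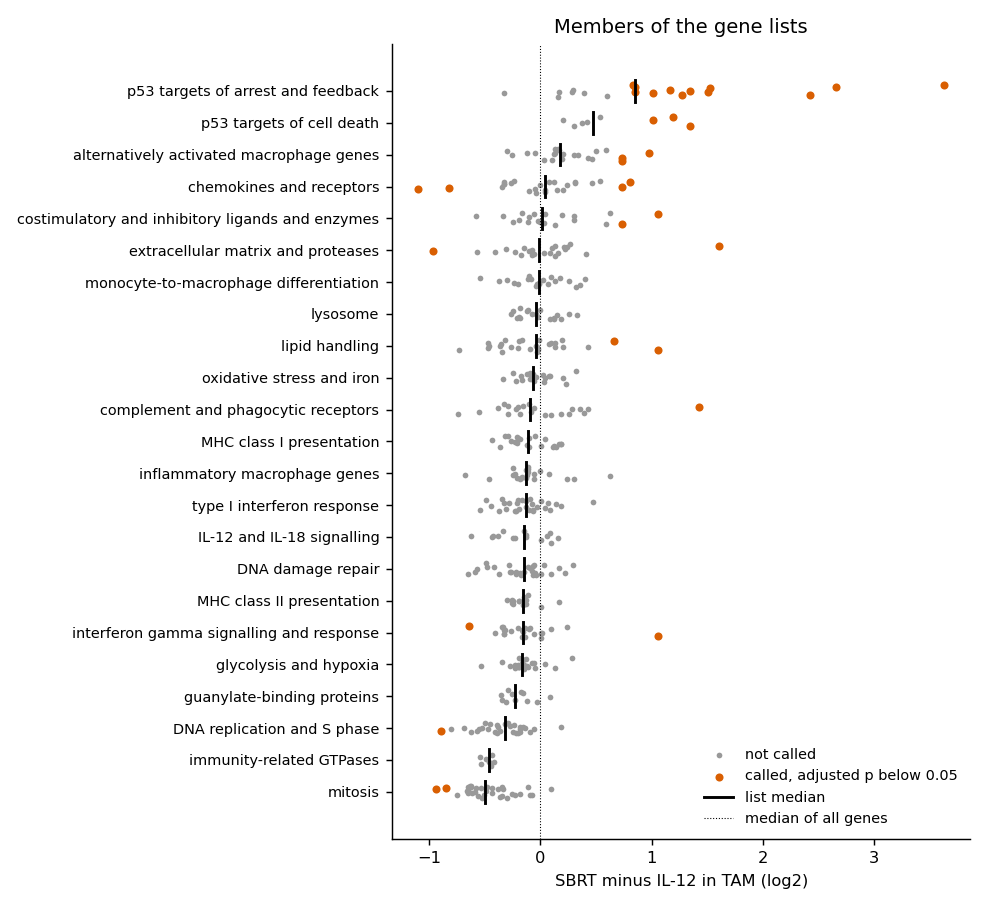
Differences between SBRT and IL-12 in macrophages (log2) for each gene of 23 lists with a level of at least 50. The p53 list of arrest and feedback has a median of 0.85 and the mitosis list one of -0.50, and 12 of the 23 lists hold no called gene (orange).

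The same contrast was smaller for several p53 targets in inflammatory monocytes. In them 95 of 13484 genes were called (0.705%), 44 higher (0.326%) and 51 lower (0.378%). The median difference of the 19 arrest and feedback targets was 0.85 in TAM, against 0.14 in IM, and the difference between the populations was tested gene by gene, as the TAM difference minus the IM difference. It passed for 54 of 13111 genes (0.412%), 41 higher (0.313%) and 13 lower (0.0992%), among them 8 of the 19 arrest and feedback targets and 3 of the 8 cell death targets, all higher in TAM. With the covariance left out, only 3 of all genes were higher and 1 lower, so most of these calls were lost. Phlda3 differed between SBRT and IL-12 by 3.63 ± 0.17 in TAM, against 0.33 ± 0.22 in IM. Its mean level was 1784 in TAM and 184.7 in IM. Cdkn1a, whose mean level was similar, at 53555 in TAM and 43713 in IM, differed by 1.35 ± 0.14 in TAM, against 0.23 ± 0.12 in IM. Bbc3 differed by 1.34 ± 0.17 in TAM, against -0.33 ± 0.15 in IM, and Ephx1 by 2.42 ± 0.22 in TAM, against -0.15 ± 0.21 in IM.

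Some genes pointed in opposite directions in the populations. Lrg1 was lower after SBRT by -1.48 ± 0.24 in TAM, against a higher value of 1.34 ± 0.21 in IM, where its mean level was 3489 (adjusted p of the difference between populations = 1.8e-14). Itga6 was at -0.85 ± 0.20 in TAM, against 0.82 ± 0.21 in IM (adjusted p = 1.4e-05). Cx3cr1 was at -0.81 ± 0.22 in TAM, against 0.55 ± 0.18 in IM (adjusted p = 0.0013). Cd163 and Fcrls, an Fc receptor-like gene, were not called in TAM, at 0.10 ± 0.23 and -0.38 ± 0.25, against 1.69 ± 0.23 and 1.16 ± 0.24 in IM. For genes with a negative IL-12 effect the outcome differed. Gas6 was at 1.42 ± 0.23 in TAM, against 0.80 ± 0.22 in IM, and Ccl9 at 0.81 ± 0.17 in TAM, against 0.72 ± 0.14 in IM, and neither passed the test of the difference, while Lhfpl2 did, at 1.40 ± 0.21 in TAM, against -0.35 ± 0.20 in IM (adjusted p = 2.4e-06). With the covariance left out, 3 genes were higher and 1 lower in the test between populations, so most calls of that test named here were lost.

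**Figure D5:**
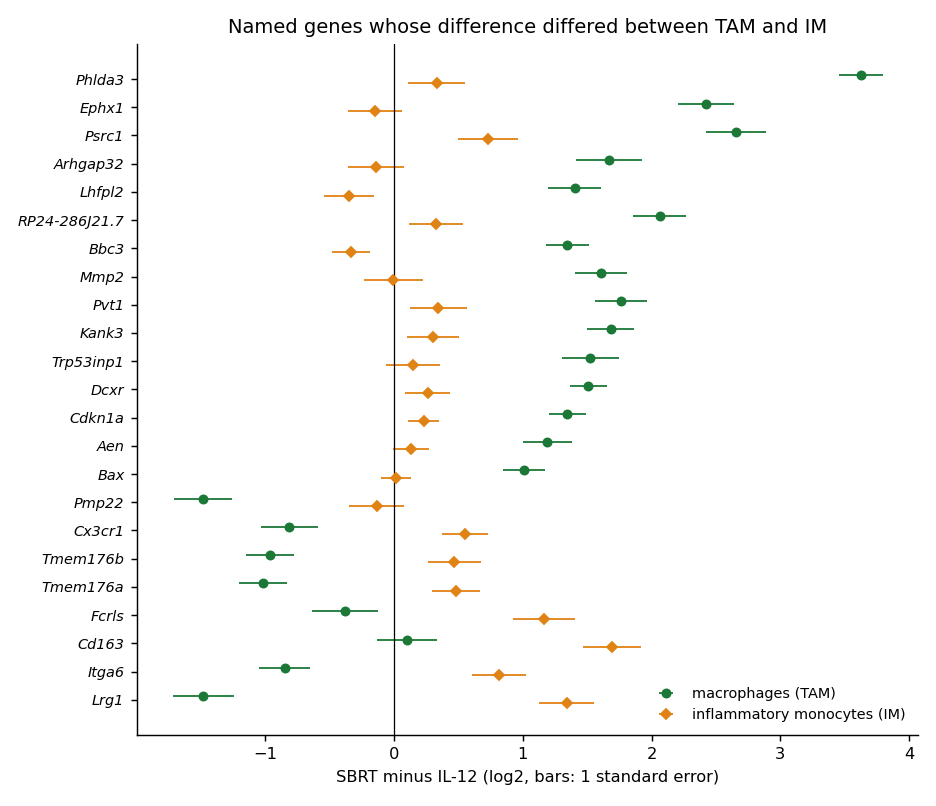
Difference between SBRT and IL-12 (log2, points, with bars of 1 standard error) in macrophages (green circles) and inflammatory monocytes (orange diamonds) for the 23 named genes with a level of at least 50 in both populations whose difference between the populations was called. Phlda3 lies at 3.63 in TAM and 0.33 in IM, and Lrg1 at -1.48 in TAM and 1.34 in IM.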

How the data were processed

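Per the labels' protocols, tumours were dissociated, cells were sorted, and library preparation used TruSeq RNA kit V2 reagents. The submitters' processing notes name STAR 2.6.0c, Salmon, featureCounts, Subread, FastQC 0.11.8 and Trimmomatic 0.36 with build GRCm38, without roles. The authors deposited DESeq2 result tables, 3 for each population, and the 6 of TAM and IM were used. Per the file headers they hold a normalised signal (the mean over libraries of scaled read counts), a log2 fold change over unirradiated, a Wald statistic, here a score, and a p-value with its adjusted p-value. The level was the same in the 3 tables of a population, the 2-sided normal probability of the statistic equalled the deposited p-value, and the deposited log2 fold changes were shrunken. In the IL-12 table of TAM 190 of the 13856 genes had opposite signs of fold change and statistic, against 3 in the SBRT table, so effects were rebuilt from the statistic.

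Each gene's per-library spread was the square root of the median, over the 3 tables, of the squared ratio of fold change to statistic divided by the sum of the inverse library numbers. An effect is the statistic times the standard error from this spread. The variance of SBRT minus IL-12 used the SBRT and IL-12 library numbers alone, since the controls cancel. The test was a 2-sided normal test, adjusted by Benjamini-Hochberg over the 32375 genes with a p (13848 with a level of at least 50), and was tested on simulated data. The TAM and IM differences share no library, and their variances were summed, though the shrunken scale may differ between the populations. Comparisons with unirradiated macrophages share their controls and are given side by side. No count data or per-library values accompany the tables. Differences were also centred on their median over all genes. In these normalised data that median was only -0.0024 in TAM, so centring could not decide whether a scale was shared by all genes. Python 3.11.15, numpy 2.4.6, pandas 2.3.3, scipy 1.17.1 and matplotlib 3.10.9 were used. Gene positions come from the GENCODE annotation and promoters from RefSeq, matched by symbol.

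Named genes were the 12 highest and 12 lowest called differences without predicted genes, pseudogenes and receptor segments, up to 4 called members of each of 23 pathway lists, 18 set genes, of which 1 is not reported here, and the 6 highest and 6 lowest differences between TAM and IM. Genes named beyond these are list members, or are said to have been chosen after their values were seen. The genes, the 23 pathway lists and the 15 marker lists were chosen with earlier results of these data known. The alternatives were other standard errors and variances, other nulls, adjustments and centring, and other limits on level.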

Additional observations from a re-analysis of the deposited data

Results flagged for a closer look

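A total of 23 named genes with a level of at least 50 in both populations are given here because the SBRT minus IL-12 difference of macrophages differed from that of inflammatory monocytes by its own 2-sided normal test, adjusted over 30093 genes. Values are the TAM difference minus the IM difference, in log2, ± its standard error. Of these, 15 were higher in TAM. The p53 targets among them were Phlda3 (3.29 ± 0.28), Ephx1 (2.57 ± 0.303), Psrc1 (1.92 ± 0.327), Bbc3 (1.68 ± 0.223), Trp53inp1 (1.38 ± 0.306), Dcxr (1.25 ± 0.228), Cdkn1a (1.12 ± 0.188), Aen (1.06 ± 0.235) and Bax (1.0 ± 0.2). The others were Arhgap32 (1.81 ± 0.336), Lhfpl2 (1.75 ± 0.286), RP24-286J21.7 (1.74 ± 0.292), Mmp2 (1.62 ± 0.305), Pvt1 (1.42 ± 0.301) and Kank3 (1.38 ± 0.273).

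The other 8 were lower in TAM. The glycoprotein gene Lrg1 (-2.82 ± 0.32) stood furthest out, followed by Itga6 (-1.67 ± 0.288), Cd163 (-1.59 ± 0.326), Fcrls (-1.54 ± 0.35), Tmem176a (-1.50 ± 0.264), Tmem176b (-1.44 ± 0.28), Cx3cr1 (-1.37 ± 0.283) and Pmp22 (-1.35 ± 0.31). Cd163 and Fcrls were called in IM and not in TAM. Adjusted p-values over the 23 genes ran from 1.8e-27 for Phlda3 to 0.0086 for Pmp22. With the covariance left out, only 3 of all genes were higher and 1 lower in this test, so most of the 23 calls were lost. The mean level of Phlda3, Ephx1 and Pmp22 was lower in IM, at 184.7, 96.5 and 61.8, than in TAM, at 1784, 1075 and 722.6, and the part of this in the result was not tested.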

How the results depend on the processing

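No called gene that was named, and in TAM no gene called in both settings, changed direction under any alternative run; among named genes the uncalled Adgre1 did (-0.011, and 0.005 with 1 standard error for both tables). With the covariance through the shared controls left out, 31 genes were higher and 4 lower in TAM, 5 and 3 in IM, 3 and 1 in TAM minus IM, and 12 and 0 among list members. All 35 of these TAM genes are among the 163, and 24 of the 60 named genes lost their call; this variance is larger by construction. With the spread of the statistics over all genes as the null, 405 were higher and 361 lower in TAM, 300 and 364 in IM, 163 and 119 in TAM minus IM, and 37 and 50 among list members. Low genes narrow that null, with a spread of 0.748 over all genes and 1.07 at a level of at least 50. A null over genes at that level, chosen after seeing the data, left 33 genes lower in TAM and 4 among list members, and removed the calls of Ptgis, Cxcl13, Bub1b and Cx3cr1. With no limit on level, 24 genes were lower in TAM minus IM, where more genes were counted. Each table's own standard error removed the calls of 6 named genes (Trp53inp1, Mdm2, Ido1, Ackr3, Ptgis and Cxcl13), and 1 standard error for both tables those of 3 (Ptgis, Cxcl13 and Cx3cr1); the cause was not tested. Centring, adjusting over genes with a level of at least 50 and a limit of 20 changed no call of a named gene, nor did a limit of 200 among the 52 named genes above it. No paired analysis was possible because the tables hold no per-library values, so leaving out a replicate and a replicate block were not run. With 2 or 3 libraries a group and unknown depth, small differences were not detectable.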

Other observations

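Genes outside the lists, chosen after their values were seen, added to some of the groups. Further genes linked to p53 were higher after SBRT than after IL-12 in macrophages, among them Mdm4, a partner of Mdm2 (0.97 ± 0.16), Exoc4, an exocyst subunit (1.26 ± 0.15), Mgmt, which repairs alkylated guanine (1.04 ± 0.23), Rps27l (0.68 ± 0.17) and the long non-coding RNA gene Trp53cor1 (0.91 ± 0.24). Further cell cycle genes were lower after SBRT, among them Dtl (-0.97 ± 0.24), Pkmyt1 (-0.96 ± 0.23), Cks1b (-0.91 ± 0.20) and Stmn1 (-0.85 ± 0.19). Of these 9 genes Mdm4 and Exoc4 were still called with the covariance left out.

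Of 10 circadian clock genes with a level of at least 50, also chosen after their values were seen, 2 were called. Nr1d1, which encodes the repressor Rev-erb alpha, was higher after SBRT by 1.49 ± 0.19 (adjusted p = 2.0e-12) and Dbp by 1.09 ± 0.20 (adjusted p = 3.9e-05), while Nr1d2 (0.51 ± 0.16), Tef (0.54 ± 0.17), Per1 (0.47 ± 0.18), Per2 (0.30 ± 0.22), Per3 (0.54 ± 0.24), Ciart (0.060 ± 0.22), Arntl (0.11 ± 0.23) and Clock (-0.17 ± 0.14) were not called. With the covariance left out Nr1d1 was still called and Dbp was not. The labels give no time of harvest. Beside Klrk1, the gene of its ligand Ulbp1 was called in the other direction, at 0.74 ± 0.19 (adjusted p = 0.020), and neither call held with the covariance left out. The other ligand genes looked at did not share this direction and were not called. They were Raet1d (-0.14 ± 0.25), H60b (-0.14 ± 0.22) and Raet1e (-0.18 ± 0.22, with a mean level of 25.6). The adaptor gene Hcst (0.30 ± 0.16) was not called either. The complement genes C4a (-0.74 ± 0.19) and C4b (-0.72 ± 0.18), near-identical copies whose reads may be split, were lower after SBRT, with IL-12 effects of 0.24 and 0.22, and neither call held with the covariance left out. The predicted genes Gm10801 (2.37 ± 0.23), Gm10722 (2.15 ± 0.24) and Gm10800 (1.45 ± 0.17) were higher after SBRT in TAM, against 0.08, 0.05 and 0.16 in IM. Their counts are uncertain where near-identical copies share reads.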
